A study of Homo sapiens with 2 samples.

Results

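The genes described here encode the proteins of the cytosolic ribosome. They were chosen by name, as every row whose symbol is RPL or RPS followed by a number (with an optional A, X or L ending), an RPLP gene from RPLP0 to RPLP2, or RPSA. This gave 85 genes of 19198 rows with a gene name, of which 53 belong to the large subunit and 32 to the small subunit. The kinases of ribosomal protein S6 and the mitochondrial ribosomal proteins carry similar names and were not included.

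Global mRNA levels were measured in polyA RNA of cells labelled A549, an established human cell line of non-small-cell lung cancer. A549-NICD1 cells overexpressed NICD1, the Notch1 intracellular domain that enters the nucleus once the receptor has been cleaved, and A549-Vector cells were the vector control. The comparison asks which genes differ with Notch1 activation. With a single library for each condition (1 against 1), differences have no replicate check and no p-value, and a condition cannot be told apart from its culture or library. The deposited values are levels per gene length and per depth and were treated as FPKM (fragments per kilobase of gene, relative to depth), a unit that the sources used here do not name. The depth behind them, recovered from the values themselves, came to 48528434 reads for A549-NICD1 and 48602848 for A549-Vector. As a check of the labels, NOTCH1 was at 2865 FPKM in A549-NICD1 and 5.40 FPKM in A549-Vector, a log2 fold change of 9.09. RFC4 was at 4075 and 39.5 FPKM. Of 16 genes listed as markers of A549, 8 reached 1 FPKM in both libraries and 7 were under 1 FPKM in both, with KRT7, FGA and FGB listed at 0, and their summed level was 357 FPKM in A549-NICD1 and 214 FPKM in A549-Vector. Of 9 genes listed for HEK293, a human embryonic kidney line, 7 reached 1 FPKM in both, with summed levels of 232 and 242 FPKM. The name of the cell line was taken from the labels, and the identity of the cells was not tested. The part of either marker list in the results below was not tested.

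A ribosome holds 1 copy of nearly all of its proteins, bound to ribosomal RNA in a small subunit that reads the mRNA and a large subunit that joins amino acids. The P stalk, formed by RPLP0 with RPLP1 and RPLP2, is the exception, because it carries several copies of its acidic proteins and recruits the translation factors. The mRNAs of these genes are among the most abundant of a dividing cell. They are known for a 5′ terminal oligopyrimidine tract (TOP), a C at the first base followed by a run of C and T, through which the mTOR pathway sets how much of each mRNA is translated. Many of the genes also carry small nucleolar RNAs in their introns and have left numerous processed pseudogenes in the genome.

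The bases around the annotated start show this tract in many of the genes, and were taken from RefSeq (GRCh38.p14), whose promoter table held 68 of the 85 genes. Each line runs from 10 bases before the start to 15 bases from it on, 5′ to 3′ on the strand of the gene, with the pyrimidine tract in capitals. The genes shown are RPS15, RPS4X, RPLP1 and RPL4, which are 4 of the 6 genes of highest level, and RPL41, which encodes the smallest protein. Also shown are the pairs RPL22 and RPL22L1, and RPS27 and RPS27L, and genes from both ends of the changes described below. RPL10, RPL36 and RPS10, which also lie at those ends, are not shown. Of these, RPL36 and RPS10 held a tract and RPL10 did not.
RPS15, chr19:1438386-1438410, plus strand: aggcgcggaccaaagcgatctcttc
RPS4X, chrX:72277234-72277258, minus strand: ctccagccccaatttctacgcgcac
RPLP1, chr15:69452808-69452832, plus strand: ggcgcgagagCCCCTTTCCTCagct
RPL4, chr15:66504841-66504865, minus strand: cgggagtggtaagcaCTTCCTTTTC
RPL41, chr12:56116623-56116647, plus strand: cttcgcctttCTCTCggccttagcg
RPL35, chr9:124861943-124861967, minus strand: cgcctacttcCTCTTTCCCTCggag
RPL12, chr9:127451392-127451416, minus strand: cgatttccggCCTCTCggctttcgg
RPL39, chrX:119791616-119791640, minus strand: ccgccagcttCCCTCCTCTTCCTTT
RPL13A, chr19:49487598-49487622, plus strand: aaacctcctcCTTTTCCaagcggct
RPS28, chr19:8321486-8321510, plus strand: gaagcacgtgaCTCCTCTCCgccag
RPS29, chr14:49598696-49598720, minus strand: agcgcgcagctggcagcggtggttg
RPL22, chr1:6199581-6199605, minus strand: cgctcacctcCCTTTCTaactccgc
RPL22L1, chr3:170870181-170870205, minus strand: ccgtagcttcCTCTCTgctctcgcg
RPS27, chr1:153990752-153990776, plus strand: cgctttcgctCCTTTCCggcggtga
RPS27L, chr15:63157463-63157487, minus strand: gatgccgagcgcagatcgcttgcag

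The tract of RPLP1 was 11 bases long and that of RPL39 was 19 bases long, running past the bases shown. In RPL4 the first base of the tract was base 6, counted from 1 at the annotated start, and in RPS28 it was base 2. A C followed by at least 4 pyrimidines began within 5 bases of the annotated start in 52 of 68 genes (76.5%), against 21.1% of all 27305 promoters and 22.6% of those whose gene had a mean level of 1 FPKM or more. It began exactly at the start base in 43 of the 68 genes (63.2%), against 4.04% of all promoters and 5.38% of those whose gene had a mean level of 1 FPKM or more. RPS15, RPS4X, RPS29 and RPS27L held no such tract at this annotated start, which says only that these letters are not in this window. The hexamer CGGAAG or its reverse complement CTTCCG, the core bound by ETS factors, occurred within the 300 bases of the promoter in 61.8% of the genes, in 19.9% of all promoters and in 33.4% of those whose gene had a mean level of 1 FPKM or more. A CTTCCG can overlap the end of a pyrimidine tract. TATAAA, searched on the strand of the gene from 40 to 15 bases before the start, was found in 4 of the 68 genes (5.88%), in 2.55% of all promoters and in 1.43% of those whose gene had a mean level of 1 FPKM or more. Of the 4 genes, 2 were among the 6 paralogs in the table. The median log2 fold change between the libraries was 0.018 both in the 52 genes with a tract and in the 15 genes without one that passed the filter described below.

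Ribosomal protein genes made up a large part of both transcriptomes. Their summed level was 55772 FPKM in A549-NICD1 and 57054 FPKM in A549-Vector, which is 14.5% and 14.8% of the sum over all genes. The large subunit held 8.57% and 8.68% of the sum and the small subunit 5.96% and 6.10%. By comparison, NOTCH1 and RFC4 together held 1.81% in A549-NICD1 and 0.0116% in A549-Vector. With NOTCH1 and RFC4 left out of the sum, the share of the ribosomal protein genes was 14.8% in each library. Among the 100 genes of highest level, 59 were ribosomal protein genes in each library, and they filled 6 of the first 10 places in A549-NICD1 and 8 in A549-Vector. In A549-NICD1, NOTCH1 and RFC4 were themselves among the first 10. In bulk RNA, fewer cells with a transcript and less of it in each cell cannot be told apart.

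Of the 85 genes, 83 had a mean of at least 1 FPKM over both libraries, 51 of the large subunit and 32 of the small subunit. Their median level was 610 FPKM in A549-NICD1 and 626 FPKM in A549-Vector, against 12.5 and 12.9 FPKM over all 12263 genes that passed the same filter. A total of 74 of them were at 100 FPKM or more in each library. RPS2, which lies near the entry of the mRNA channel, was highest, at 3109 FPKM in A549-NICD1 and 3028 FPKM in A549-Vector. RPS15 followed at 2050 and 2113 FPKM, and RPL8, a protein close to the peptidyl transferase centre, was at 1846 and 1850 FPKM. RPS4X, which is encoded on the X chromosome, was at 1802 and 1924 FPKM. RPLP1 of the P stalk was at 1592 and 1573 FPKM, and RPL4, which lines the exit tunnel of the nascent chain, at 1544 and 1547 FPKM. RPS2 was first of these in both libraries, whereas the levels of RPL8 and RPS4X came in opposite order in A549-NICD1 and A549-Vector.

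**Figure D1:**
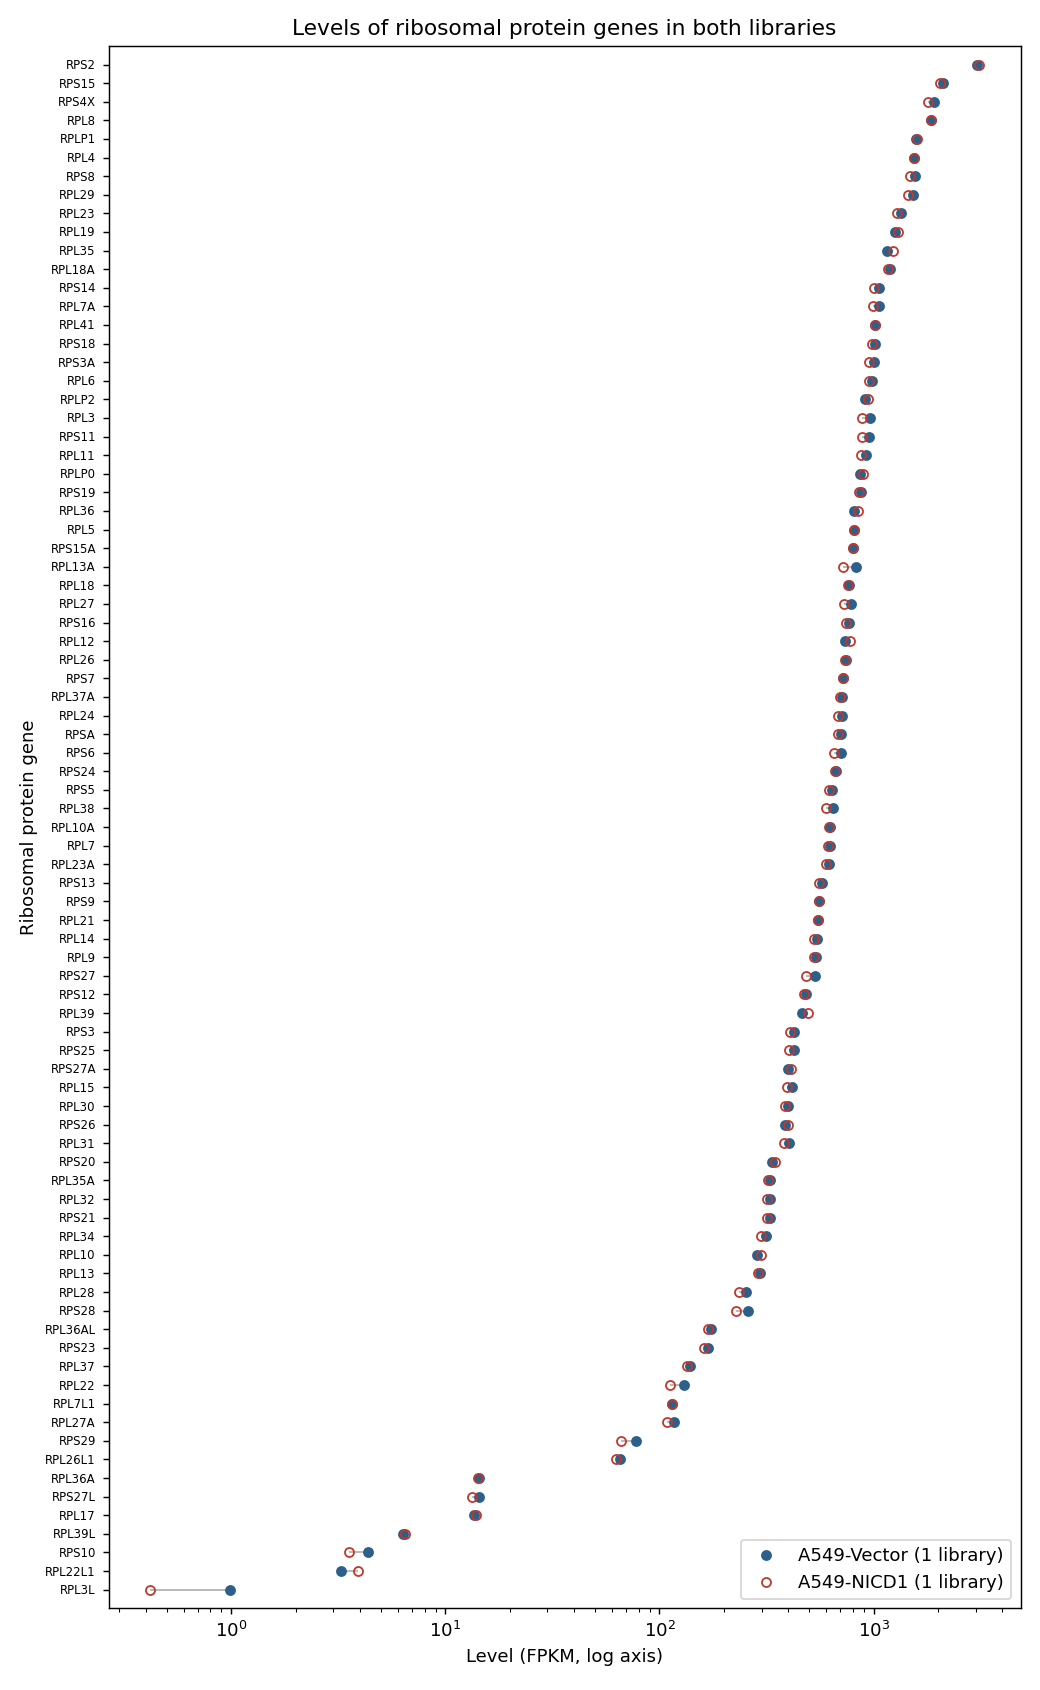
Levels of ribosomal protein genes in FPKM on a log axis, with 1 point for the A549-Vector library (filled) and 1 for the A549-NICD1 library (open), ordered by the mean of both. Both points of most genes lie close together, the widest gap is that of RPL3L at the bottom, and the genes run from RPL3L at 0.982 and 0.418 FPKM to RPS2 at 3028 and 3109 FPKM.

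The mRNA levels of the members spread widely. The 90th percentile of the 83 genes was 17.4 times the 10th percentile in A549-NICD1 and 15.5 times in A549-Vector. The order of the genes was almost the same in both libraries, with a Pearson's r of 0.999 for log2 levels across genes, which share cell line, gene length and counting and are not independent replicates. The order among genes also depends on the gene length by which reads were divided. Each gene's values fit whole reads only at certain lengths, and the smallest such length ranged from 97 to 4879 bases, with a median of 669 bases. RPL27A had at least 25651 reads for A549-NICD1 and 27654 for A549-Vector, close to the 26410 and 28268 of RPS6, but its level was 108 and 117 FPKM at a length of 4879 bases or a multiple of it, while RPS6 was at 656 and 702 FPKM at 829 bases or a multiple. RPS23 had lengths of at least 3314 bases and RPL13 of at least 4493 bases, at 161 and 289 FPKM in A549-NICD1. A total of 8 genes had a smallest length of 2000 bases or more. Whether these lengths are those of the transcripts present was not tested, and the ratio of a gene between libraries does not depend on them.

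At the low end stood the paralogs described further below and 3 genes that lie within annotated readthrough genes. RPS10 was at 3.55 FPKM in A549-NICD1 and 4.38 FPKM in A549-Vector, RPL17 at 13.8 and 13.7 FPKM, and RPL36A at 14.2 and 14.3 FPKM. Of the main transcript of RPS10 (chr6:34417454-34426125, minus strand), 77.0% of the exonic bases also belonged to exons of RPS10-NUDT3 in GENCODE 29. For RPL17 (chr18:49488453-49492523, minus strand) the share was 68.6%, with RPL17-C18orf32, and for RPL36A (chrX:101390824-101396154, plus strand) 77.6%, with RPL36A-HNRNPH2. All 3 readthrough genes were listed at 0 in both libraries. The downstream partners HNRNPH2 and C18orf32 were at 0.0173 and 0.407 FPKM in A549-NICD1 and 0.0517 and 0.498 FPKM in A549-Vector. NUDT3, the downstream partner of RPS10, was at 3.53 FPKM in A549-NICD1 and 5.32 FPKM in A549-Vector, a scaled log2 fold change of -0.52. No other ribosomal protein gene shared more than 50% of these bases with another listed gene. RPS29, which is neither a paralog nor overlapped in this way, was at 66.0 and 78.0 FPKM. The part of reads that match 2 genes in the level of RPS10, RPL17 and RPL36A was not tested.

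The genes also differ in their number of pseudogenes. GENCODE 29 names 1144 pseudogenes after 77 of the 85 genes, with a median of 8 for a gene. RPL23A has 91, RPSA, the laminin receptor protein of the small subunit, 74, and RPL21 66. RPL23A was at 602 FPKM in A549-NICD1 and 621 FPKM in A549-Vector, RPSA at 685 and 705 FPKM, and RPL21 at 548 and 553 FPKM. Spearman's rho between the number of pseudogenes and the level was 0.013 in A549-NICD1 and 0.0038 in A549-Vector across the 83 genes, which share both libraries. The genes lie on 21 chromosomes, and 28 of them hold small nucleolar RNA genes, 59 in all.

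Between the conditions, the ribosomal protein genes changed little. Fold changes were taken as the log2 ratio of A549-NICD1 over A549-Vector with 0.1 FPKM added to each value, after dividing A549-NICD1 by a scaling factor of 0.958, the trimmed mean ratio over genes that passed the filter. On this scale the median of the 83 genes was 0.019, against 0.0010 over all 12263 genes. The range between the lower and upper quartile was 0.074 log2 units, against 0.254 over all genes and 0.157 over 518 other genes with a mean of at least 100 FPKM. A total of 81 of 83 genes (97.6%) lay within 0.2 log2 units of 0, against 68.7% of all genes and 85.1% of the 518 other abundant genes. The 518 genes were not matched in level, with a median of 148 FPKM in each library. The median of the 83 genes was 610 FPKM in A549-NICD1 and 626 FPKM in A549-Vector. None of the 83 genes was above 0.5, past which 2.72% of all genes lay, and none was below -0.5, past which 3.39% of all genes lay. No test of these counts was made, since genes of 1 library are not replicates.

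**Figure D2:**
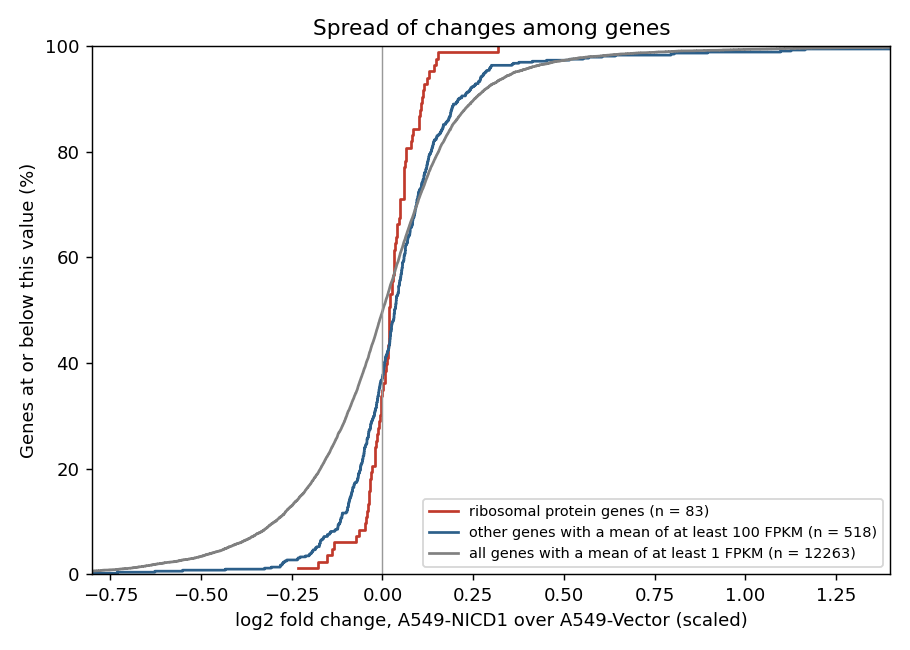
Cumulative share of genes (y axis, percent) at or below each log2 fold change of A549-NICD1 over A549-Vector (x axis), for 83 ribosomal protein genes (red), 518 other genes averaging at least 100 FPKM (blue) and all 12263 genes that passed the filter (grey). The curve of the ribosomal protein genes is the steepest, with 81 of 83 genes within 0.2 of 0.

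Their direction depended on the scaling between libraries. With the scaling, 29 of 83 genes (34.9%) were below 0, against 49.8% of all genes. Without it, the deposited values put 65 of 83 (78.3%) below 0, against 63.3% of all genes, and the median was -0.043, against -0.061 over all genes. In all, 29 genes were below 0 in both ways, 18 were above 0 in both, and 36 changed sign. When only genes with a mean of at least 10 FPKM set the scale, 43 of the 80 ribosomal protein genes left were below 0, against 50% of all genes left, and their median was -0.0044. Of the 518 other abundant genes, 37.3% were below 0 with the scaling and 60.8% without it, and their scaled median was 0.034. The median of the ribosomal protein genes thus moved by more with the scaling than its distance from 0, whereas differences between members do not depend on the scaling.

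Among the members, counting error was small, and the least number of reads that fits the values had a median of 21485 for A549-NICD1 and 21833 for A549-Vector. The 95% Clopper-Pearson interval of the fold change, which covers counting error only and is widest at this least number, is given beside the values below. Since reads carried no molecular identifiers they need not be independent molecules, and the intervals leave out differences between cultures.

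All 3 P stalk genes had a higher value in A549-NICD1, with or without the scaling, by less than 0.2 log2 units. Of all genes, 49.8% were below 0 with the scaling and 63.3% without it. Both ways, 18 of the 83 ribosomal protein genes were above 0. Members outside the stalk had similar scaled values, such as 0.10 for RPS2 and 0.12 for RPS20. RPLP0 was at 889 FPKM in A549-NICD1 and 863 FPKM in A549-Vector, a scaled log2 fold change of 0.11 (interval 0.08 to 0.13). RPLP1, at 1592 and 1573 FPKM, gave 0.08 (interval 0.06 to 0.10), and RPLP2, at 938 and 912 FPKM, gave 0.10 (interval 0.07 to 0.13). RPL12, which sits at the base of the stalk, was at 777 and 736 FPKM, a scaled log2 fold change of 0.14 (interval 0.12 to 0.17).

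Of the large subunit, 35 of 51 genes were above 0 on the scaled values, and the median was 0.032. This subunit had 31.4% of its genes below 0, against 49.8% of all genes and 37.3% of the 518 other abundant genes. Its highest values besides RPL22L1 were those of RPL39, a very small protein of the exit tunnel, at 492 FPKM in A549-NICD1 and 462 FPKM in A549-Vector, and RPL35, which lies at the tunnel exit, at 1230 and 1158 FPKM. Their scaled log2 fold changes were 0.15 (interval 0.11 to 0.19) and 0.15 (interval 0.12 to 0.17). RPL12 followed, then RPL10, which takes part in the last steps of large subunit maturation, at 299 and 286 FPKM with 0.13, and RPL36 at 849 and 814 FPKM with 0.12. All 6 of these highest genes were also above 0 without the scaling. RPL5 and RPL11, which with the 5S ribosomal RNA form a particle that can bind MDM2 and so raise p53, were at 812 and 810 FPKM and at 871 and 918 FPKM. Their scaled log2 fold changes were 0.07 and -0.01. RPL41, the smallest protein of the ribosome, was at 1018 and 1020 FPKM, a scaled log2 fold change of 0.06.

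At the other end of the large subunit were RPL22, RPL13A and RPL3. RPL13A, known for leaving the ribosome to silence inflammatory mRNAs, was at 722 FPKM in A549-NICD1 and 829 FPKM in A549-Vector, a scaled log2 fold change of -0.14 (interval -0.16 to -0.12). RPL3, a protein next to the peptidyl transferase centre, was at 882 and 963 FPKM, with -0.06 (interval -0.08 to -0.05). RPL22, at 112 and 130 FPKM, is described with its paralog.

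Of the small subunit, 19 of 32 genes were above 0 on the scaled values, and the median was 0.011. This subunit had 40.6% of its genes below 0, against 49.8% of all genes and 37.3% of the 518 other abundant genes. RPS20 was at 346 FPKM in A549-NICD1 and 334 FPKM in A549-Vector, a scaled log2 fold change of 0.12, and RPS27A, which is made as a fusion with ubiquitin, was at 413 and 399 FPKM with 0.11. RPS2, the most abundant member, gave 0.10. The lowest value belonged to RPS10, at -0.23, which rests on as few as 30 and 37 reads and has an interval from -0.98 to 0.50. Next came RPS29, a small zinc-binding protein, at 66.0 and 78.0 FPKM with -0.18 (interval -0.25 to -0.11), RPS28 at 227 and 260 FPKM with -0.13 (interval -0.19 to -0.07), and RPS27 at 485 and 532 FPKM with -0.07 (interval -0.12 to -0.03). Leaving out the scaling lowers every log2 fold change, so all 4 were below 0 without it by construction. RPS6, the substrate of the S6 kinases, was at 656 and 702 FPKM, with a scaled log2 fold change of -0.03, and RPSA, at 685 and 705 FPKM, had 0.02.

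**Figure D3:**
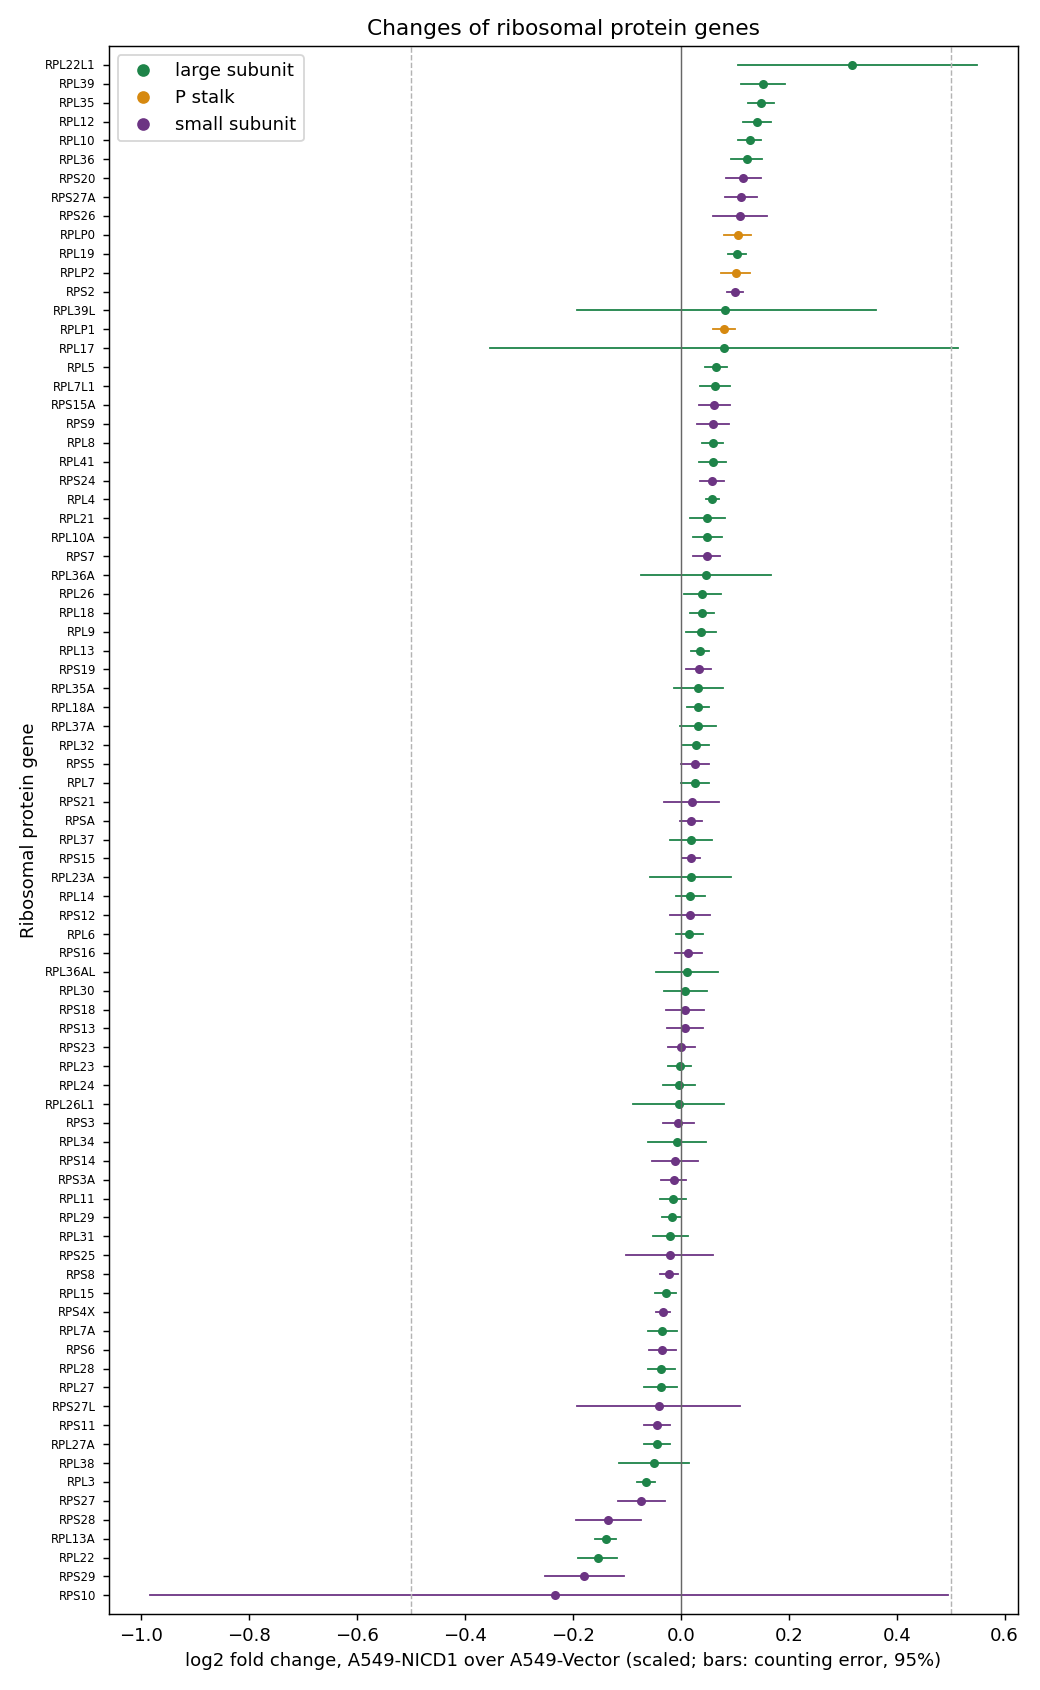
Scaled log2 fold change of A549-NICD1 over A549-Vector (x axis) for 82 of the 83 ribosomal protein genes that passed the filter, with 95% Clopper-Pearson intervals for counting error as bars, the large subunit in green, the P stalk in orange, the small subunit in purple and dashed lines at -0.5 and 0.5. Points run from RPS10 at -0.23 to RPL22L1 at 0.32, and the 3 P stalk genes lie between 0.08 and 0.11.

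A total of 8 members are paralogs of another ribosomal protein gene, some of which are made mainly in single tissues. RPL10L, known from the testis, was listed at 0 in both libraries. RPL3L, known from heart and skeletal muscle, was at 0.418 FPKM in A549-NICD1 and 0.982 FPKM in A549-Vector, under the filter of 1 FPKM. It had at least 31 and 73 reads, a log2 fold change of -1.01 with 0.1 FPKM added and a counting interval from -1.83 to -0.55. RPL39L, also known from the testis, was at 6.45 and 6.35 FPKM, where RPL39 was at 492 and 462 FPKM. RPS27L, a p53 target, was at 13.3 and 14.3 FPKM, against 485 and 532 FPKM for RPS27. RPL26L1 was at 62.5 and 65.4 FPKM, and RPL26 at 734 and 745 FPKM. RPL7L1 was at 115 FPKM in both libraries, and RPL7 at 610 and 626 FPKM. RPL36AL, at 169 and 175 FPKM, was the one paralog above its partner, since RPL36A, one of the overlapped genes, was at 14.2 and 14.3 FPKM.

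RPL22 and RPL22L1 had values of opposite sign. RPL22, an RNA-binding protein of the large subunit that is known to hold down RPL22L1, was at 112 FPKM in A549-NICD1 and 130 FPKM in A549-Vector, a scaled log2 fold change of -0.15 (interval -0.19 to -0.12). RPL22L1 was at 3.92 and 3.26 FPKM, from at least 373 and 311 reads, a scaled log2 fold change of 0.32 (interval 0.11 to 0.55). Their counting intervals did not overlap, and without the scaling the values were -0.22 and 0.26. RPL22L1 made up 3.38% of the summed level of the pair in A549-NICD1 and 2.45% in A549-Vector, a change of the ratio of 0.48 log2 units, which does not depend on the scaling. In the other 5 pairs with both genes above the filter, the ratio changed by -0.07 to 0.04 log2 units. The pair was singled out after its values were seen, and 1 library a condition gives no estimate of how far the ratio varies between cultures.

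Other genes of translation were set beside the ribosomal proteins. FAU and RACK1, ribosomal proteins that the name rule leaves out, were in the same range. FAU, a ubiquitin-like fusion that gives a small subunit protein, was at 424 FPKM in A549-NICD1 and 411 FPKM in A549-Vector, and RACK1 at 1272 and 1348 FPKM. Their scaled log2 fold changes were 0.11 and -0.02. The median was -0.0013 over 10 elongation factors. None of them was beyond 0.5 in either direction, where 2.72% of all genes lay above 0.5 and 3.39% below -0.5. EEF1A1, which brings aminoacyl-tRNA to the ribosome, was at 1461 and 1523 FPKM. Over 12 other genes known for TOP mRNAs the median was 0.032, from -0.19 for EIF4B to 0.16 for VIM. Over 13 subunits of eIF3, which scaffolds initiation on the small subunit, the median was 0.076, with EIF3D highest at 0.27 and EIF3C at -0.52. EIF3C was at 9.30 and 13.9 FPKM, and its near-identical copy EIF3CL was at 3.04 and 2.69 FPKM, so that reads of this pair are uncertain. The other 18 initiation factors had a median of 0.048, from -0.19 for EIF4B to 0.23 for EIF2S1.

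Over all 12263 genes, 49.8% were below 0, 2.72% were above 0.5 and 3.39% were below -0.5. The 11 chaperones and assembly partners of ribosomal proteins had a median of 0.14, with 10 above 0 and none beyond 0.5. ZNF622, which binds the joining face of the large subunit, was highest among them, at 30.9 FPKM in A549-NICD1 and 23.0 FPKM in A549-Vector, a scaled log2 fold change of 0.49, and PDCD2 was lowest, at -0.02. The 10 genes whose names begin with RPS6K were listed together as S6 kinases. Of these, RPS6KL1 was above 0.5, at 6.75 and 4.80 FPKM with a scaled log2 fold change of 0.55. RPS6KA5 was lowest at -0.25, and the median of the 10 was -0.033. The mitochondrial ribosome, built from 79 listed genes of which 78 passed the filter, had a median of 0.071, with 52 above 0 and 26 below and none beyond 0.5 in either direction. It ran from -0.32 for MRPL54 to 0.49 for MRPS31. The mitochondrial genes held 1.09% of the summed level in each library, against 14.5% and 14.8% for the cytosolic ones.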

How the data were processed

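Gene expression was measured by mRNA sequencing of 1 A549-NICD1 and 1 A549-Vector library, grouped by their labelled genotype. Per the labels, libraries were made from polyA RNA with a NEBNext Ultra kit, and the submitters' processing notes list Bowtie2, HTSeq and hg38; the annotation and versions are not given in the sources used here. The authors deposited 1 value per gene, treated as FPKM. Values of low genes differed between libraries by simple fractions times 1.001533, the ratio of depths. The depths were those at which the lengths of 206 of the 2067 genes used equalled a GENCODE 29 transcript length, against 2 at the next best depth. The least reads of each gene come from the smallest length, from 50 bases on, that gives whole reads in both libraries within 0.001, so true reads are that number or a multiple. All 84 members above 0 gave whole reads.

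The scaling factor was an unweighted trimmed mean of log ratios (30% of ratios and 5% of the expression range trimmed at each end). Of 19225 rows, 27 had a number in the form of a date as their name and were set aside (0.142% and 0.160% of the sums). Shared sequence is the percentage of windows of the GENCODE main transcript (100 bases long, at steps of 50) that also occur in transcripts of another gene name. Steps were tested on simulated reads. The members named are the 6 highest and 6 lowest by level and by fold change, those under the filter, the paralogs and their partners, and preset genes; RPS20, RPS23, RPL13, RPL21, RPL23A and RPL27A were named after their values were seen. Results for 2 genes are not reported here. Members and lists were chosen with earlier results of these data known. Scaling, pseudocount, filter and membership were varied. Python 3.11.15, numpy 2.4.6, scipy 1.17.1 and pandas 2.3.3 were used.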

Additional observations from a re-analysis of the deposited data

How the results depend on the processing

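No paired analysis was possible because there was a single library for NICD1 and a single one for the control, and no replicate could be left out. Without scaling and with scaling by the sum of all values, the median log2 fold change of the ribosomal protein genes moved from 0.019 to -0.043 and -0.036, with 65 and 59 of 83 genes below 0 in place of 29. Of all genes, 63.3% and 61.7% were then below 0 in place of 49.8%, with medians of -0.061 and -0.053. The large subunit moved from 0.032 to -0.030 and -0.023 and the small subunit from 0.011 to -0.051 and -0.043. RPL7L1 moved from 0.064 to 0.0017 and 0.0090, and RPL36AL, without scaling, from 0.011 to -0.051. RPL22 moved from -0.15 to -0.22 and -0.21 and the P stalk from 0.10 to 0.040 and 0.047. In the same order of settings, the median moved to -0.019 and -0.012 for FAU and RACK1, to -0.063 and -0.056 for elongation factors, to 0.014 and 0.021 for eIF3, to -0.014 and -0.0070 for other initiation factors, to -0.030 and -0.023 for other TOP mRNA genes, to 0.082 and 0.089 for chaperones, to -0.095 and -0.088 for S6 kinases and to 0.0093 and 0.017 for the mitochondrial ribosome. With a filter at a mean of 10 FPKM, the median of the ribosomal protein genes (-0.0044), the small subunit (-0.0088) and RPL36AL (-0.012) turned sign by less than the limits given last. Without a filter, 1 ribosomal protein gene, RPL3L at -1.02, was below -0.5. Without RPS2, the members held 13.7% of the summed level in A549-NICD1 and 14.0% of it in A549-Vector. The median level was 622 and 648 FPKM without the 8 genes that share over 50% of their windows, and 656 and 665 FPKM without the paralogs. Of 175 values recomputed, 137 stayed within their counting interval, for medians and shares within 0.027 log2 units, or, for counts, within 1.5 times, whatever their sign.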
